A study of Panonychus citri with 4 samples.

Results

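miR-315 is a microRNA (miRNA), described here across 4 small RNA libraries of the citrus red mite (Panonychus citri), a plant-feeding spider mite. It was taken as every listed name that reads miR-315, alone or with a letter or a suffix, which gave 2 of the 594 names listed over the libraries, miR-315 and miR-315-5p, each with a row in all 4. It was chosen by its excess of reads in the embryo, in the same counts and shares given here, so its levels and ratios by stage are a description and carry no test. The libraries came from whole bodies of embryos (more than 3000 pooled), larvae (2500), nymphs (1500, protonymphs mixed with deutonymphs) and adults (1000), with 1 library per stage. No genotype, strain or treatment is named, and the labels give neither the sex nor the age of the adults. Values therefore compare these libraries, without replicates, and all intervals are 95% intervals (Clopper-Pearson) for counting error alone, as reads amplified by PCR do not stand for independent molecules.

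A miRNA is a short RNA that guides an Argonaute protein to messenger RNAs, mainly through its bases 2 to 8, the seed, and lowers their translation or stability. miR-315 is known from insects and other protostomes. In Drosophila it activates Wingless (Wnt) signalling when overexpressed, by acting on the messages of the pathway inhibitors Axin and Notum, and it is transcribed in the embryonic nervous system. Neither its targets nor the tissue it comes from were measured in these whole mites.

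The deposited sequences of both rows are shown because they tell whether the rows are different miRNAs or lengths of one, with the seed in capitals, written with T for U as deposited.
miR-315: tTTTGATTgttgctcagaaggcg
miR-315-5p: tTTTGATTgttgctcagaa
The miR-315-5p row, of 19 bases, was the first 19 bases of the 23-base miR-315 row and lacked its last 4. Both rows thus start at the same base, carry the same seed and belong to the same arm, and their reads can be summed. Of the other names, 0 shared the seed, 0 shared bases 2 to 7, 0 held the seed anywhere in their sequence and 0 had a seed with a single base difference. In addition, 0 other names overlapped either row without mismatch over 17 or more bases. The 594 names held 282 different seeds, so miR-315 stood as a family of its own in this list. At 23 bases the leading row was among the 121 names of 23 bases or more, where the median name had 22, and like 51.9% of names it began with T.

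The listed miRNA reads, which set the depth behind each share, numbered 248256, 1012278, 1258698 and 438409 in the embryo, larva, nymph and adult libraries. They made up 4.17%, 17.04%, 21.2% and 7.41% of library totals that were nearly equal, between 5918115 and 5957910 reads. Shares of listed reads and reads per 1000000 of the library total (library RPM) therefore differ in what they show, and both are given.

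The leading row, miR-315, had 79774 embryo reads, 4641 larva reads, 2654 nymph reads and 350 adult reads. The shorter row, miR-315-5p, had 21, 18, 11 and 2 reads in the same order. Both rows were highest in the embryo and lowest in the adult, but the shorter row differed by only 3 reads between embryo and larva. Their sum took 32.1% of listed embryo reads (interval 31.96 to 32.3), 0.460% of larva reads (0.447 to 0.474), 0.212% of nymph reads (0.204 to 0.2199) and 0.0803% of adult reads (0.0721 to 0.0891). In library RPM the sum stood at 13393, 784.2, 448.3 and 59.5 from embryo to adult. On both scales each stage was lower than the one before it, with intervals of the shares that do not overlap. Of all 87471 miR-315 reads, 91.2% came from the embryo library, 5.33% from the larva, 3.05% from the nymph and 0.402% from the adult. In bulk RNA from whole animals, fewer cells that hold the miRNA and less of it per cell cannot be told apart.

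**Figure D1:**
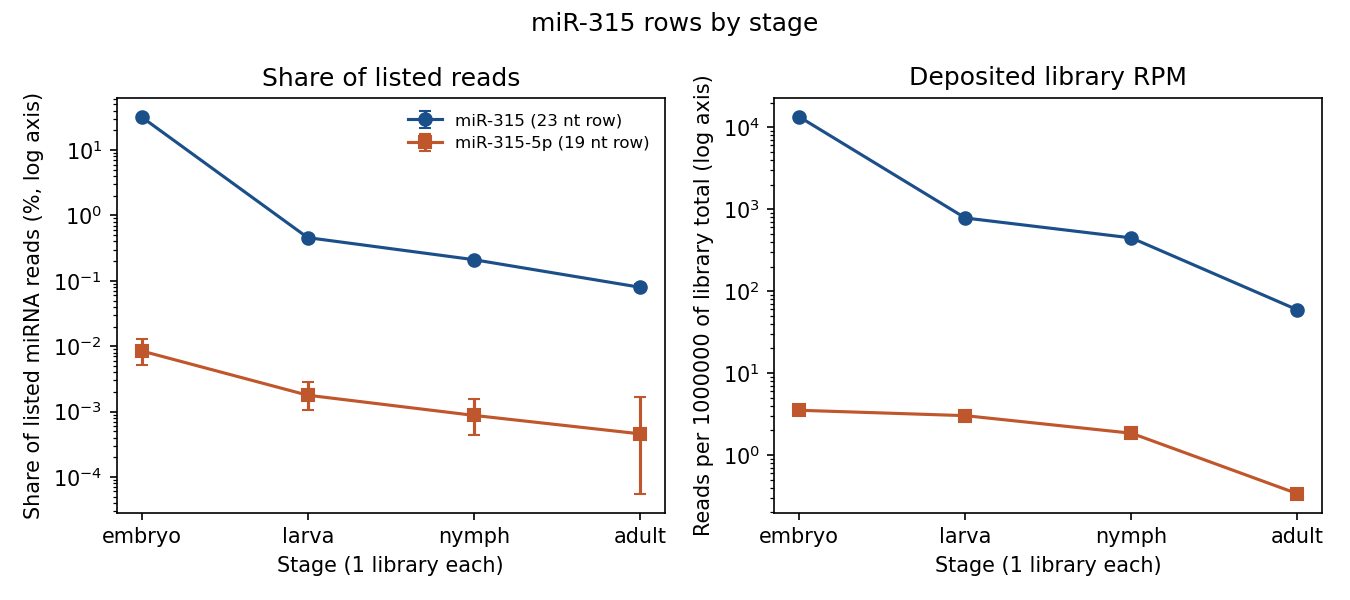
Levels of both miR-315 rows in the embryo, larva, nymph and adult libraries, on log axes. The left panel shows the share of listed miRNA reads in percent, with 95% counting intervals as bars, and the right panel the deposited reads per 1000000 of the library total. The miR-315 row drops most between embryo and larva on both scales, while miR-315-5p stands at 3.52 and 3.03 library RPM in these libraries.

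To rank miRNAs, length variants of the same family that overlap without mismatch over at least 17 bases were summed, which joined the 594 names into 366 sequence groups. Each group is called by its leading name. The order is one of reads, since sequences differ in how well they ligate and amplify. The miR-315 group ranked 1 of 212 embryo groups, 13 of 225 larva groups, 20 of 290 nymph groups and 29 of 224 adult groups. In the embryo it had 1.61 times the reads of the next group, miR-92-3p (interval 1.60 to 1.63), and 1.64 times those of miR-1 (1.62 to 1.66), a muscle miRNA. In the larva it stood between miR-263-5p, with 6243 reads, and miR-993a-3p, with 2718. In the nymph it stood between miR-2b-3p, with 3025 reads, and miR-8-3p, with 2079. In the adult it stood between miR-210-3p, with 413 reads, and miR-252c-5p, with 285. The ratios to these neighbours lay beyond counting error, and the one nearest to 1 was the nymph ratio to miR-2b-3p, at 0.881 (0.836 to 0.928). The 5 leading groups were miR-315, miR-92-3p, miR-1, miR-10-3p and miR-5735-3p in the embryo. In both larva and nymph they were miR-1, miR-184, miR-5735-3p, miR-10-3p and miR-34-5p, the last 2 in the other order in the nymph, and in the adult miR-317 took the place of miR-10-3p.

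Against miR-1, which needs no choice of total, miR-315 had 1.64 reads for each miR-1 read of the embryo library, against 0.00918 for larva reads, 0.00416 for nymph reads and 0.00171 for adult reads. These ratios put miR-315 above miR-1 in the embryo library and far below it in the others. Because miR-315 held so many reads, leaving its rows out of the total multiplied the share of every other miRNA by 1.47 in the embryo, against 1.005 in the larva. The share of miR-92-3p in the embryo was 29.4% without miR-315 and 19.9% with it, and that of miR-1 was 28.9% without and 19.6% with it. The same step moved miR-1 in the larva to 50.4%, against 50.1% with miR-315 counted.

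Seeds gave the same order of leaders when reads were summed over all names that share bases 2 to 8. In the embryo the miR-315 seed (TTTGATT), held by 2 names, took 32.1% of listed reads. It was followed by the seed of miR-92 (ATTGCAC, 9 names) with 20.5% and that of miR-1 (GGAATGT, 9 names) with 19.6%. The miR-315 seed ranked 13 among larva seeds, 21 among nymph seeds and 27 among adult seeds, where the miR-1 seed led with 50.1%, 50.9% and 47.1%. The 2 names of the miR-315 seed were few beside those of most families with many reads. Among 30 families with at least 1000 reads the median family had 7 names, and only 3 had 2 or fewer. Among these 3, miR-5735 also had 2 names and held 329767 reads over the libraries, more than the 87471 of miR-315. By name, 23 of the 30 listed both a 5p and a 3p arm, whereas miR-315 had no row named for the 3p arm in any library. Names without reads have no row, and the set of names that was searched is not stated, so no level of the other arm follows from this.

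The comparisons of pairs of libraries ask how the miRNA profile changed between stages. A name or group whose reads over both libraries came to 30 or more was called higher or lower when the whole interval of its ratio lay past 2-fold. Those with enough reads are referred to as assessed, since a call is not a test of the stages. In the larva miR-315 took 0.460% of listed reads, against 32.1% in the embryo, and was 69.8-fold lower (67.8 to 71.9). With the library totals it was 17.1-fold lower (16.6 to 17.6). Both rows were called lower in listed reads, where 43.3% of the 104 assessed names were. With the library totals the miR-315 row alone was called lower, where 12.5% of names were. Of the sequence groups, 44.7% of 76 were lower in listed reads and 3.95% with the library totals, namely miR-92-3p, miR-315 and miR-92f-3p. Many of the groups lower in listed reads alone had similar read counts in both libraries. The group let-7a-5p had 812 larva and 841 embryo reads, with ratios of 0.237 in listed reads and 0.968 with the library totals. For miR-103-3p, with 106 and 105 reads, they were 0.248 and 1.01. Lower calls were 68.0% of all group calls in listed reads and 8.11% with the library totals, which moved every log2 ratio up by the same amount, so that the median group stood at -1.02 and at 1.01. The log2 ratio of miR-315 lay 5.10 below that median on either scale (-5.10), the second lowest of the 76. As miR-315 was picked for this contrast, these places are descriptive.

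**Figure D2:**
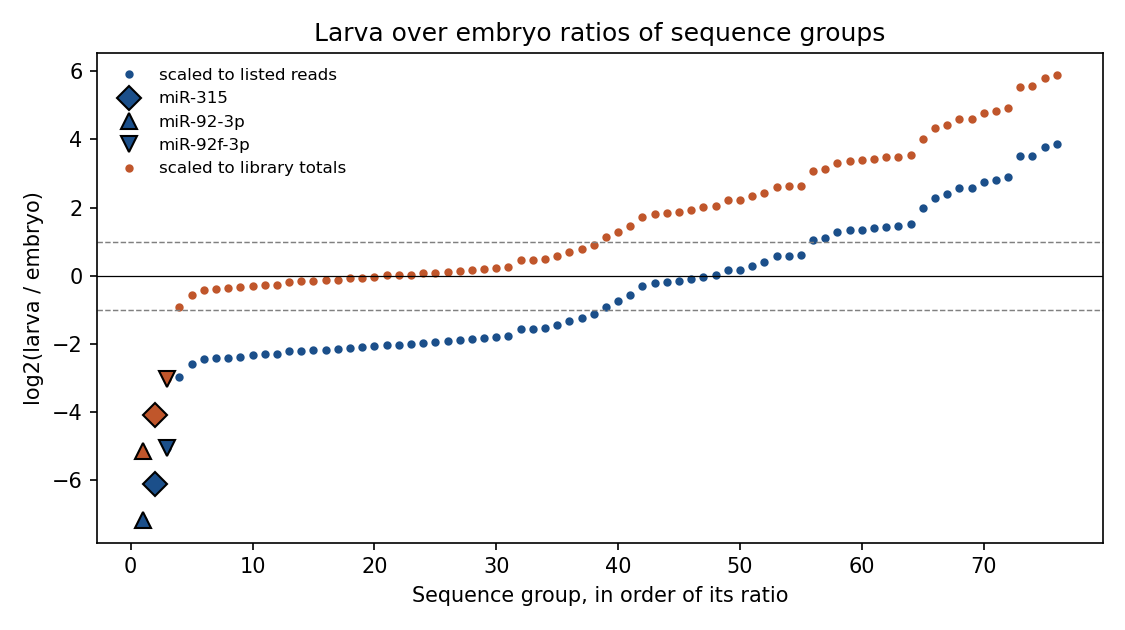
Larva over embryo log2 ratios of the 76 sequence groups with at least 30 reads over both libraries, in rising order, scaled to listed reads (blue) and to library totals (orange), with dashed lines at 2-fold. miR-92-3p, miR-315 and miR-92f-3p, drawn as large symbols, are the 3 lowest groups on both scales, and the library totals raise every group by the same step.

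In the nymph, with 2665 miR-315 reads, against 4659 in the larva, the group was 2.17-fold lower (2.07 to 2.28) in listed reads and 1.75-fold lower (1.67 to 1.84) with the library totals, where it did not pass 2-fold. The groups called lower were 3.49% of 86 in listed reads and 2.33% with the library totals. In the adult, with 352 reads, against 2665 in the nymph, miR-315 was 2.64-fold lower (2.36 to 2.96) in listed reads and 7.54-fold lower (6.74 to 8.45) with the library totals. Here 10.5% of 86 groups were called lower in listed reads, but 45.3% with the library totals. Lower calls were 9 of 18 calls in listed reads and all 39 calls with the library totals. Relative to the median group, the log2 ratio of miR-315 was -1.50 for nymph over larva and -1.73 for adult over nymph, whichever total was used. It ranked 5 from the lowest of 86 groups in nymph over larva and 9 from the lowest of 86 in adult over nymph.

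Between stages further apart, miR-315 was 151.8-fold lower in the nymph than in the embryo in listed reads (146.1 to 157.8) and 29.9-fold lower (28.7 to 31.1) with the library totals, where 33.7% and 3.61% of 83 groups were called lower. It was 400.3-fold lower in the adult than in the embryo (360.5 to 445.8) in listed reads and 225.2-fold lower (202.8 to 250.7) with the library totals, where 9.72% and 5.56% of 72 groups were called lower. It was 5.73-fold lower in the adult than in the larva (5.14 to 6.41) in listed reads and 13.2-fold lower (11.8 to 14.7) with the library totals, where 8.86% and 25.3% of 79 groups were called lower. In listed reads the step between embryo and larva was thus the widest of the 3 between neighbouring stages, and it was so with the library totals as well. The 6 comparisons share libraries and are not independent of each other.

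The proportion of the short row within miR-315 differed between the libraries and does not depend on the choice of total. miR-315-5p made up 0.0263% of the embryo reads of both rows (0.0163 to 0.0402), 0.386% of the larva reads (0.229 to 0.610), 0.413% of the nymph reads (0.206 to 0.737) and 0.568% of the adult reads (0.0689 to 2.04). The embryo proportion lay below the others beyond counting error, and the intervals of the larva, nymph and adult overlap. Set against the long row, the short row was 14.7 times as frequent in the larva as in the embryo (7.40 to 29.04) and 15.7 times in the nymph as in the embryo (6.86 to 34.2). It was 21.7 times as frequent in the adult as in the embryo (2.47 to 88.8), from 2 adult reads. In library RPM the short row stood at 3.03 in the larva, against 3.52 in the embryo, a ratio of 0.860 (0.432 to 1.69), whereas the long row stood at 781.2 in the larva, against 13389.6 in the embryo.

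Other short rows were looked at in the same way, by a rule set after the miR-315 values were seen. A short row had to be the start of a longer row of its family with at least 300 reads in each library, and to be listed in all 4, which 9 rows besides miR-315-5p met. In the embryo their proportions ran from 0.0540% to 19.2% with a median of 2.76%, so that the miR-315-5p proportion lay below all 9, though its interval overlaps that of the lowest, miR-184b (0.0147 to 0.138). For larva over embryo their ratios to the long row ran from 0.475 to 3.74, against 14.7 for miR-315, and 2 of the 9 passed 2-fold upwards. Those were miR-124b, the 19-base row of the neuronal miR-124-3p, at 3.74 (2.44 to 6.01), and miR-184a-3p, the 20-base row of miR-184, at 3.63 (3.17 to 4.18). The 19-base row of miR-1, miR-1a-3p, had a ratio of 0.904 (0.852 to 0.959). The lowest ratio, that of miR-184b, rests on 4 embryo reads, with an interval of 0.173 to 1.82. For nymph over embryo the ratios of the 9 ran from 0.940 to 4.51, with 8 above 1 and 1 past 2-fold, against 15.7 for miR-315. For adult over embryo they ran from 1.08 to 5.42, with all 9 above 1 and 3 past 2-fold, against 21.7 for miR-315, whose interval (2.47 to 88.8) reaches into that range. A lower embryo proportion was thus not particular to miR-315, as miR-124b and miR-184a-3p had it past 2-fold. The adult over embryo intervals of let-7, let-7c, miR-184b and miR-34 include 1. Some of these rows share a long row, among them miR-124b and miR-124b-3p, both past 2-fold in adult over embryo. The embryo denominator is the read count for which miR-315 was chosen, so its ratio is a description, and whether RNA quality or the matching of reads to names moved with it was not tested.

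**Figure D3:**
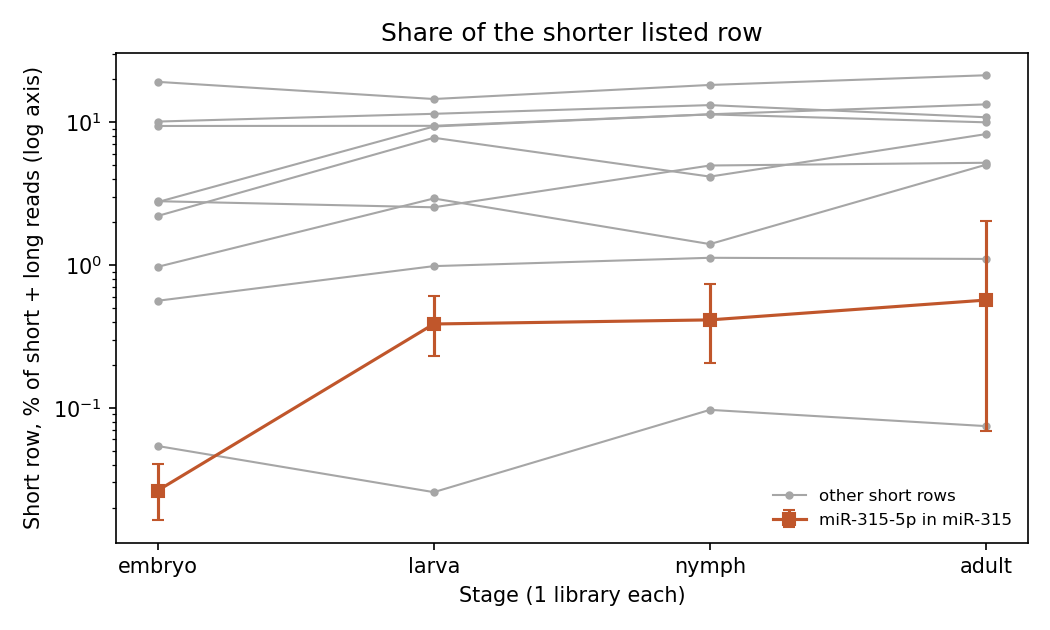
Reads of a shorter listed row as a percentage of the reads of that row and its longer row, by library, on a log axis, for miR-315-5p (orange, with 95% counting intervals) and 9 other short rows (grey). miR-315-5p is at 0.0263% in the embryo and between 0.386% and 0.568% in the other libraries.

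The miRNAs whose stage pattern was most like that of miR-315 were sought among 66 other groups with at least 100 reads over the 4 libraries. Likeness was the Euclidean distance between log2 profiles over the 4 libraries, each centred on its own mean, which does not depend on how libraries are scaled. The closest were miR-92-3p at 2.12 and miR-92f-3p at 2.38, followed after a gap by miR-279-3p at 4.83, miR-2284-5p at 5.29 and miR-101 at 5.31. The median of the 66 groups was 6.36, and the farthest was miR-34-5p at 10.7. Only 4 libraries define the pattern, so likeness is a description and has no p-value.

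The leading sequences of the closest groups, with seeds in capitals, are given to compare them with the miR-315 rows above.
miR-92-3p: tATTGCACtcgtcccggcct
miR-92f-3p: tATTGCACtagtcccggcct
miR-279-3p: tGACTAGAtccacattcatcca
The miR-92 rows differ by C10A, counted from 1 at the 5′ end of miR-92-3p, and share a seed that is unlike that of miR-315. The group miR-92-3p, whose family acts in neural stem cells in Drosophila, had 49458, 1382, 615 and 28 reads from embryo to adult. The group miR-92f-3p had 1533, 185, 381 and 43. Both were highest in the embryo, as was miR-315, but miR-92f-3p had more reads in the nymph than in the larva. The group miR-279-3p, a miRNA of sensory neuron development in Drosophila, had 8610, 9413, 14570 and 2652 reads. It had its highest share in the embryo, at 3.47%, but its highest library RPM in the nymph, at 2451. The groups miR-2284-5p and miR-101, whose names are known from vertebrates, had 25 to 50 reads in the embryo and nymph and 16 to 35 in the larva and adult.

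**Figure D4:**
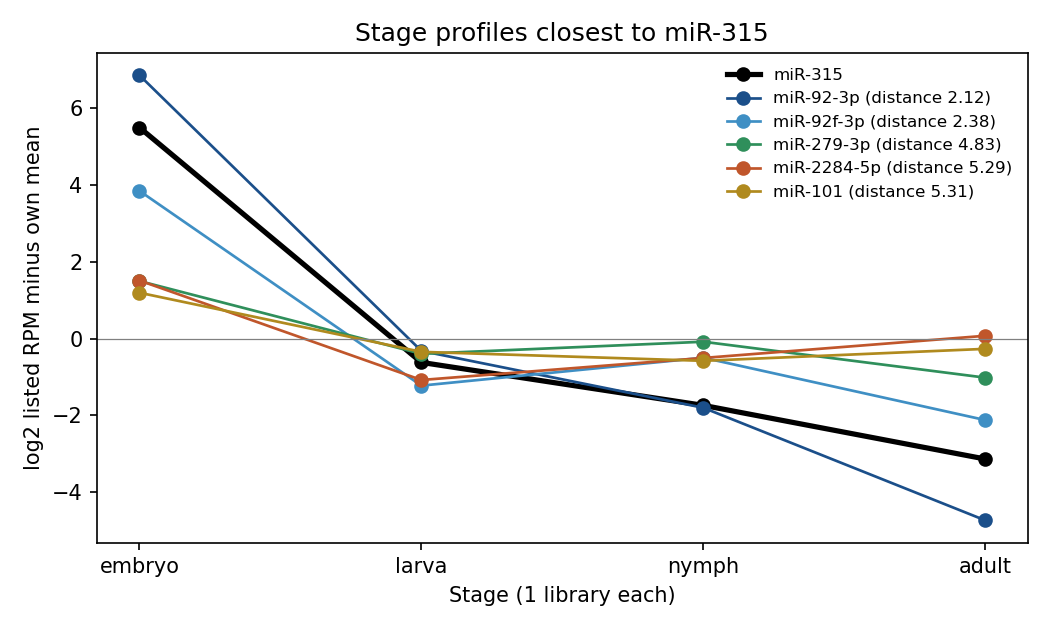
Stage profiles of miR-315 (black) and of the 5 sequence groups closest to it, as log2 reads per 1000000 listed minus each group's own mean over the 4 libraries. The miR-92-3p line runs above miR-315 in the embryo and below it in the adult, and the 3 groups beyond the miR-92 groups are much flatter.

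Within the libraries the balance of miR-315 to miR-92-3p was not fixed. For each miR-92-3p read the embryo library held 1.61 miR-315 reads (1.60 to 1.63), the larva library 3.37 (3.17 to 3.58), the nymph library 4.33 (3.97 to 4.74) and the adult library 12.6 (8.55 to 19.2). Each ratio lay above that of the stage before it, beyond counting error. Against miR-92f-3p the embryo ratio was 52.1 (49.5 to 54.8), the larva ratio 25.2 (21.7 to 29.3), the nymph ratio 6.99 (6.28 to 7.81) and the adult ratio 8.19 (5.95 to 11.5). It was highest in the embryo, and the intervals of the nymph and adult overlap.

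miR-315 was set beside a list of miRNAs tied to Wingless signalling or abundant in Drosophila embryos, and a list of neural miRNAs. Members of both lists were chosen with earlier results of these data known. In the first list 8 groups besides miR-315 were assessed in larva over embryo, from a list of 20 families. In listed reads 4 of the 8 were lower, 1 was higher, and the median log2 ratio was -1.29, against -1.02 over all 76 groups, of which 44.7% were lower and 21.1% higher. The lower groups were miR-92-3p, 145.9-fold lower (138.3 to 154.0), and miR-92f-3p, 33.8-fold lower (29.0 to 39.6). Also lower were miR-279-3p, by 3.73-fold (3.62 to 3.84), and miR-9a-3p, by 2.51-fold (2.17 to 2.89). The higher group was miR-184, needed in the female germline of Drosophila, at a ratio of 5.90 (5.77 to 6.03). With the library totals 2 of the 8 were lower, miR-92-3p and miR-92f-3p, and 3 were higher, with a median of 0.743, against 1.01 over all 76 groups, of which 3.95% were lower and 44.7% higher. miR-279-3p then had a ratio of 1.10 and miR-9a-3p of 1.63, neither of them called. The other member linked to Wingless, miR-8-3p, which lowers Wingless signalling in Drosophila, had 1025 reads in the larva, against 122 in the embryo, a ratio of 2.06 (1.71 to 2.51) in listed reads and 8.43 (6.98 to 10.3) with the library totals. On both scales it thus stood above 1 where miR-315 stood below.

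In the neural list 13 groups besides miR-315 were assessed in larva over embryo. In listed reads 5 were higher and 0 lower, with a median log2 ratio of 1.39, and the library totals gave 12 higher and 0 lower, with a median of 3.42. Over all 76 groups, 21.1% were higher and 44.7% lower in listed reads, with a median of -1.02. Many of those lower groups had similar reads in both libraries. The let-7 groups were among them, as were miR-451-5p (67 larva and 76 embryo reads) and miR-486 (56 and 49). The background of both lists in listed reads depends on such groups, and shares without them were not computed. With the library totals 44.7% of all groups were higher and 3.95% lower, with a median of 1.01. miR-315 was thus the 1 member of that list called lower. The higher members with the most reads were miR-87 with a ratio of 13.8 (10.4 to 18.7), miR-263b, which protects sensory bristle cells in Drosophila, with 2.86 (2.40 to 3.42), miR-276 with 6.67 (5.12 to 8.85) and miR-7, a miRNA of photoreceptor development in Drosophila, with 2.71 (2.10 to 3.55). Besides miR-315 the group with the most reads was the neuronal miR-124-3p, with 11848 larva and 3306 embryo reads. It was not called in listed reads, at 0.879 (0.846 to 0.914), but was higher with the library totals, at 3.59 (3.46 to 3.74). In listed reads miR-7-3p, at 0.806, and miR-124-2-5p, at 0.674, also lay below 1 and miR-263-5p, at 1.51, above it, none of them called. By name, where length variants stand apart, 9 of 21 were higher and 2 lower in listed reads, and in the first list 3 of 13 were higher and 6 lower, where 28.8% of all assessed names were higher and 43.3% lower. Many of these calls set a length variant with no row in one library against reads in the other, namely 5 of the 9 higher and both lower names of the neural list, and 1 of the 3 higher and 2 of the 6 lower names of the first. The lower neural names were miR-190 and miR-263b-5p, and their joined groups were not called (miR-190-5p, 2.42, 1.92 to 3.11) or called higher (miR-263b). In adult over nymph 3 of the 13 other neural groups were lower in listed reads, where 10.5% of all groups were, and 11 with the library totals, where 45.3% were. In nymph over larva 1 of 14 was lower and 3 higher in listed reads, where 3.49% of all groups were lower and 12.8% higher.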

How the data were processed

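Per the labels' protocols, a 15% polyacrylamide gel separated the RNAs of 18 to 30 nucleotides, which were then ligated to adaptors, amplified and sequenced. The files deposited by the authors hold, per the file headers, a read count in whole numbers for every known miRNA name, with its sequence and a normalized value. Dividing the count by the deposited normalized value gave 1 total per library, so these values are reads per 1000000 (RPM) of a library total. No label or header used here names the read matcher, the miRNA reference, its mismatch rule or the reads that enter the total. The labels' developmental stage assigned each library.

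From the counts, shares of listed reads with Clopper-Pearson intervals, ratios with exact conditional binomial intervals, and distances between profiles (absent rows set to 3 reads) were computed in Python 3.11.15 with scipy 1.17.1. Ratio intervals were tried on simulated counts with independent counting error alone, the error the intervals assume. This checks the calculation only, since PCR duplicates and differences between libraries were not simulated. The alternatives were library totals, totals without miR-315 or without miR-1, median-of-ratios scaling, TMM (edgeR 4.0.16), the leading row alone, sequence groups and other read minimums. With 1 library per stage no test was made.

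The miRNA, the lists and the rules were chosen with earlier results of these data known. The text names the miR-315 rows, the 5 groups with the closest profile, the 5 leading groups of each library, rows sharing the seed or 17 overlapping bases, and up to 4 called list members per direction. Groups next to miR-315 in rank, miR-8-3p and the other short rows were named after their values were seen. So were the groups with similar larva and embryo reads and the uncalled neural groups.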

Additional observations from a re-analysis of the deposited data

How the results depend on the processing

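The ratios of miR-315 stayed below 1 in all 6 comparisons under every setting run, and passed 2-fold in all but nymph over larva with the library totals (0.572). In larva over embryo the ratio was 0.0143 in listed reads, against 0.0586 with the library totals, 0.00976 without miR-315 in the totals, 0.0231 without miR-1 in the totals, 0.0401 with median-of-ratios scaling and 0.0336 with TMM. In nymph over embryo it was 0.00659, and in the same order of settings 0.0335, 0.00448, 0.0108, 0.0141 and 0.0124. In adult over embryo it was 0.0025, and in that order 0.00444, 0.0017, 0.00379, 0.0035 and 0.00329. With the library totals, median-of-ratios scaling and TMM, adult over nymph gave 0.133, 0.249 and 0.265 (0.379 in listed reads) and adult over larva 0.0758, 0.0873 and 0.0978 (0.174 in listed reads). Nymph over larva gave 0.351 with median-of-ratios scaling and 0.368 with TMM (0.460 in listed reads). The other 12 ratio settings, the leading row alone among them, lay within the counting interval.

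As a percentage of the library total, miR-315 took 1.34, 0.0784, 0.0448 and 0.00595 from embryo to adult. As a percentage of listed reads without miR-1 it took 39.996, 0.923, 0.431 and 0.152, and relative to the reads outside miR-315 47.4 in the embryo. The order of the stages was the same on each of these scales.

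Names past 2-fold numbered 75 of 104 assessed in larva over embryo, 38 of 115 in nymph over larva and 41 of 113 in adult over nymph. They were 92 of 117 in nymph over embryo, 51 of 99 in adult over embryo and 44 of 100 in adult over larva. Joined into sequence groups these counts were 50 of 76, 14 of 86, 18 of 86, 53 of 83, 27 of 72 and 29 of 79 in that order. In adult over nymph the count was 66 of 113 names with the library totals and 27 of 76 with at least 100 reads. With profiles of at least 30 reads, 3 of the 5 closest groups were the same, miR-92-3p and miR-92f-3p leading both times.

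No paired analysis was possible because each stage has 1 library. With no replicates, the spread between animals or cultures is not known. The adult values rest on 352 miR-315 reads, 2 of them of the short row. Where a distance or ratio needed a value, a name with no row was set to 3 reads, although rows with 2 reads are listed. That value is 12.1, 2.96, 2.38 and 6.84 per 1000000 listed reads from embryo to adult.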
